A study of Homo sapiens with 10 samples.

Results

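The genes described here are 40 cell cycle genes whose RNA is made mainly in S phase or around mitosis. They were measured by nanopore long-read RNA sequencing in 7 established human ovarian cancer cell lines. Members were taken by name: every transcript whose gene name in the deposited annotation is one of the 40 was counted, which gave 114 of 99493 transcripts and 40 of 57110 genes. 12 members act in S phase (MCM2, MCM3, MCM4, MCM5, MCM6, MCM7, GINS2, PCNA, RRM1, RRM2, TYMS and TK1). The other 28 act in G2 and M phase. SK-OV-3, COV362, COV504, OVMANA, OVTOKO and OVKATE had 1 PromethION library each. IGROV-1 had 4 libraries, replicates 1 and 2 on the PromethION and replicates 1 and 2 on the MinION, a smaller instrument that reads RNA-derived molecules through the same kind of protein pore. No line is labelled as a control, and the labels give no genotype, treatment, time, culture density or cell cycle arrest for any group. They also do not say whether the IGROV-1 replicates came from separate cultures, or whether equal numbers on the 2 instruments mark the same sample. The p-values thus measure the spread between these libraries, which may be technical.

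A dividing cell copies its DNA in S phase and separates the copies in mitosis. E2F factors are freed from the RB protein before S phase, and E2F sites drive genes of the replication machinery and of nucleotide synthesis. Genes for mitosis are switched on later, through the MuvB complex with B-MYB and FOXM1 at CHR elements and through NF-Y at CCAAT boxes, and the DREAM complex holds them down in resting cells. Levels of both sets in an unsorted culture therefore depend on how many cells are cycling and on how much RNA each makes. In these bulk libraries fewer cells in a phase and less RNA per cell cannot be told apart.

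Promoters of the members are shown first, because the comparison between lines below separates S phase genes from mitotic genes. RefSeq promoters on GRCh38.p14 (250 bases before to 50 bases after the start) were found for 33 of the 40 members. The E2F motif was searched as TTTGGCG and as the forms of it with letters 4 and 5 changed to CC (TTTCCCG), to GC (TTTGCCG) or to CG (TTTCGCG). The CHR was searched as TTTGAA and the CCAAT box as CCAAT, each motif on both strands, and overlapping matches were kept. An E2F match was present in 70% of the promoters of 10 S phase members, in 21.7% of those of 23 G2 and M phase members and in 8.69% of all 27305 promoters. A CHR match was present in 1 of the 10 S phase promoters, in 65.2% of the 23 G2 and M phase promoters and in 15.4% of all promoters. CCAAT matches were present in 70% and 87.0% of these sets and in 35.7% of all promoters. CHR and CCAAT together were present in 60.9% of the G2 and M phase promoters and in 6.08% of all promoters. A match describes the letters in the window and does not show that a factor binds there.

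The 120 bases before the start are printed for 4 S phase members whose RNA was low in SK-OV-3 and for 4 mitotic members, with matches to any of the motifs in capitals. In the first 4 the E2F matches are the overlapping run that starts with TTTGGCG in MCM6, the run TTTCGCG in MCM7 and the run CGGGAAA in both PCNA and GINS2, and the remaining capitals are CCAAT boxes on either strand.
MCM6 (chr2:135876444-135876563, minus strand): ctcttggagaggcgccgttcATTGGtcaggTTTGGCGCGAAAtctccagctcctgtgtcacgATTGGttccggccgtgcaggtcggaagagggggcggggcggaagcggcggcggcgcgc
MCM7 (chr7:100101398-100101517, minus strand): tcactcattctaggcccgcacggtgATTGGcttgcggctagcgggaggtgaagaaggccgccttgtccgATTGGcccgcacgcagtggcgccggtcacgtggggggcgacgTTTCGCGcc
PCNA (chr20:5126623-5126742, minus strand): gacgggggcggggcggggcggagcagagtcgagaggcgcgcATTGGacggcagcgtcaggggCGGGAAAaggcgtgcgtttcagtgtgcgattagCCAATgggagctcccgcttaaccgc
GINS2 (chr16:85688955-85689074, minus strand): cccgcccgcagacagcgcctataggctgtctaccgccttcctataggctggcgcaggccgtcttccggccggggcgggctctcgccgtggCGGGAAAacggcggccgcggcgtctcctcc
In the next 4 the capitals TTTGAA are CHR matches, TTTCCCG in MKI67 is an E2F match, and the others are CCAAT boxes.
CCNB2 (chr15:59105026-59105145, plus strand): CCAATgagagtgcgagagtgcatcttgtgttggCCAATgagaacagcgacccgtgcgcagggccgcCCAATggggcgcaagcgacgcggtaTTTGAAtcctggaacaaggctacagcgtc
PLK1 (chr16:23678769-23678888, plus strand): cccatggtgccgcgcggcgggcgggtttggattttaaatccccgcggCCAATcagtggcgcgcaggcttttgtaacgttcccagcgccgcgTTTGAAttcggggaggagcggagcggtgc
CKS1B (chr1:154974561-154974680, plus strand): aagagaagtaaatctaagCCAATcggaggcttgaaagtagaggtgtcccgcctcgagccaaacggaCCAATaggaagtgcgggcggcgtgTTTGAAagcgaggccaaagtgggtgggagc
MKI67 (chr10:128126424-128126543, minus strand): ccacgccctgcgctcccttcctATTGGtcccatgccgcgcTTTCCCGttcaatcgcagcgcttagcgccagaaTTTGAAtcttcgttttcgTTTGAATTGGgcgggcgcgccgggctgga
The CHR match began 29 bases before the start in CCNB2 and PLK1 and 30 bases before it in CKS1B, and MKI67 had matches beginning 47 and 29 bases before the start. In MCM6 the E2F matches TTTGGCG and CGCGAAA overlapped, beginning 90 and 85 bases before the start. The printed members all hold an E2F or a CHR match, which other members lacked. RRM1, RRM2 and TK1, also called lower in SK-OV-3 below, had no E2F match in the searched promoters. CCNA2, CCNB1, AURKB, BUB1, PTTG1, KIF20A, KIF2C and CENPE had no CHR match there. The part of E2F sites in the SK-OV-3 levels was not tested.

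Libraries held 1729782 to 3666224 counts, with the MinION libraries of IGROV-1 the deepest, and the 40 genes together took 0.33% to 0.64% of a library. Levels are given as CPM, counts scaled to the library total, not divided by gene length. A count of 0 allows up to 3 counts, which is 0.818 to 1.73 CPM per library. PAX8, a marker of ovarian carcinoma, was detected in every library at 84.1 to 339.8 CPM. EPCAM, a marker of epithelial cells, was at or below 1.54 CPM in the 4 IGROV-1 libraries against 8.67 to 1814 CPM elsewhere, so that marker was near absent from IGROV-1. The other epithelial and ovarian markers were mixed. In IGROV-1, KRT18 had 615 to 3494 counts and KRT19 328 to 573, but KRT8 had 12 to 37 and CDH1 had 0. CDH1 had 4 counts in OVTOKO and in COV362, and KRT19 had 1 in OVTOKO. MUC16 had 0 counts in OVTOKO and SK-OV-3 and at most 2 in IGROV-1. WT1 had 154 counts in OVKATE and at most 1 elsewhere. The 5 leukocyte markers summed to at most 16.3 CPM and the 4 endothelial markers to at most 27.6 CPM. The 5 fibroblast markers summed to 364 CPM in SK-OV-3, 435 CPM in COV362 and at most 119.7 CPM in the other libraries, with DCN at or below 0.578 CPM in every library. Of these, COL1A2 made up nearly all in COV362 (429 CPM). SK-OV-3 had COL1A1 at 219 CPM, COL1A2 at 57.2 CPM, LUM at 52.7 CPM and COL3A1 at 33.9 CPM, and all 4 tested markers were called higher there with a median log2 change of 6.53. SK-OV-3 is low and COV362 high for the cell cycle genes below, and the part of other cell types in this was not tested.

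Summed over members, S phase RNA was lowest in SK-OV-3 and mitotic RNA was lowest in OVTOKO. The 12 S phase genes summed to 609.8 CPM in SK-OV-3, 1466 in OVTOKO, 1484 in OVMANA, 1907 in OVKATE, 1951 in COV362 and 2176 in COV504. IGROV-1 had 2090 and 1755 CPM in PromethION replicates 1 and 2, and 2300 and 1956 CPM in the MinION replicates. SK-OV-3 was far below every other library, and the highest of 7 lines was 3.57 times the lowest. The 28 G2 and M phase genes summed to 2075 CPM in OVTOKO, 2594 in OVMANA, 2687 in SK-OV-3, 3669 in COV504, 3795 in OVKATE and 4404 in COV362. In IGROV-1 they summed to 3302 and 2507 CPM on the PromethION and 3298 and 2641 CPM on the MinION, a spread within 1 line that covers OVMANA and SK-OV-3. The highest line was 2.12 times the lowest here. The wider range of the S phase sum rests on SK-OV-3: over the 6 other lines the highest S phase sum was 1.48 times the lowest, while the mitotic figure stayed at 2.12. The ratio of the mitotic to the S phase sum was 4.41 in SK-OV-3 and 1.42 to 2.26 in the 5 other single-library lines, with 1.50 ± 0.11 (SD, n = 2) for IGROV-1 on the PromethION and 1.39 ± 0.06 (SD, n = 2) on the MinION. These sums weigh abundant members most, so single genes follow.

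**Figure D1:**
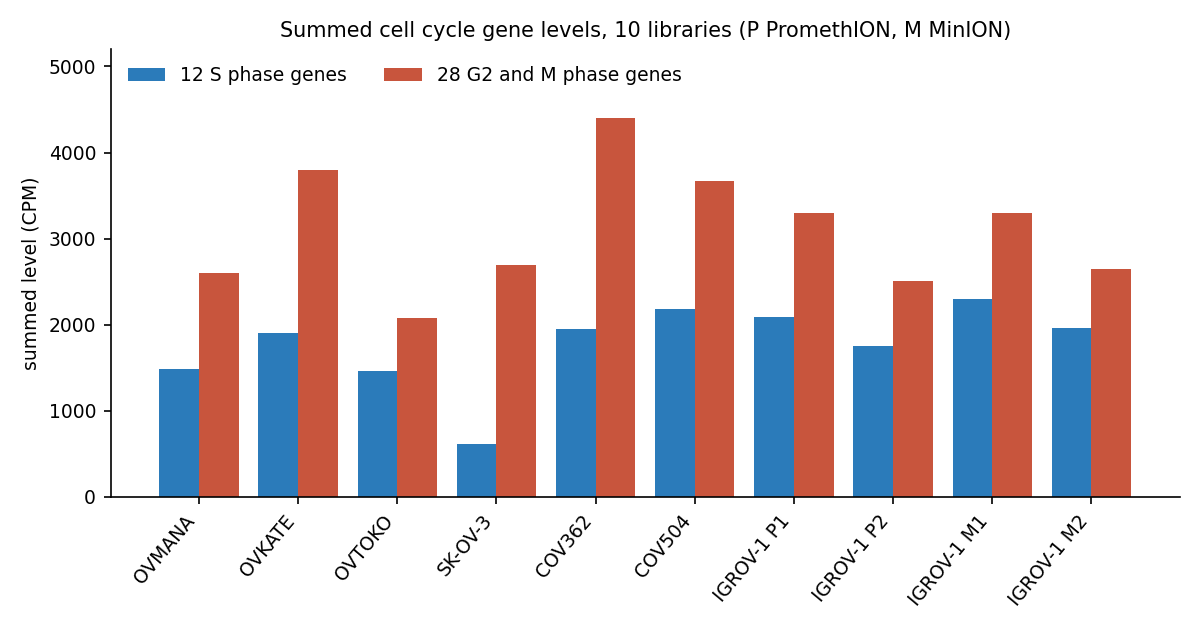
Bars give the summed level in CPM of the 12 S phase genes (blue) and the 28 G2 and M phase genes (red) in each of 10 libraries, with P1 and P2 the PromethION and M1 and M2 the MinION replicates of IGROV-1. The S phase sum of SK-OV-3 (609.8 CPM) is the lowest, while its mitotic sum (2687 CPM) lies between those of OVTOKO and COV504.

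MCM2 to MCM7 form the ring-shaped helicase that unwinds DNA at replication forks, and GINS2 is a subunit of the GINS complex that activates it. MCM7 was at 24.3 CPM in SK-OV-3, 64.7 in OVTOKO, 77.5 in OVMANA, 91.5 in OVKATE, 186 in COV362 and 191 in COV504, and in IGROV-1 at 216 and 201 on the PromethION and 229 and 199.6 on the MinION. SK-OV-3 was lowest by a wide margin, OVTOKO, OVMANA and OVKATE formed a middle group, and COV362, COV504 and IGROV-1 were high. MCM2 stood at 31.9 CPM in SK-OV-3, 42.8 in OVTOKO, 44.3 in OVMANA, 109 in OVKATE, 122 in COV504 and 172 in COV362, and in IGROV-1 at 85.4 and 85.5 on the PromethION and 91.6 and 72.9 on the MinION. COV362 was highest and SK-OV-3 lowest, with OVTOKO and OVMANA close above it. GINS2 lay at 15.0 CPM in OVMANA, 22.3 in SK-OV-3, 57.9 in OVKATE, 76.9 in OVTOKO, 95.2 in COV362 and 107 in COV504, and in IGROV-1 at 67.5 and 61.4 on the PromethION and 101 and 62.1 on the MinION. Here OVMANA, not SK-OV-3, was lowest, and every other line lay above both. MCM4 was found at 29.4 CPM in SK-OV-3, 49.7 in OVMANA, 71.7 in OVTOKO, 73.2 in OVKATE, 82.3 in COV504 and 95.2 in COV362, and in IGROV-1 at 134 and 104 on the PromethION and 101 and 99.5 on the MinION. IGROV-1 was highest on both instruments, and its lowest library exceeded COV362. MCM3 was measured at 42.5 CPM in SK-OV-3, 55.5 in OVTOKO, 63.8 in OVKATE, 65.7 in OVMANA, 125 in COV504 and 138 in COV362, and in IGROV-1 at 123 and 116 on the PromethION and 83.5 and 88.7 on the MinION. SK-OV-3 was again lowest, and the IGROV-1 MinION libraries lay below its PromethION libraries. MCM5 ran from 31.4 CPM in SK-OV-3 to 72.3 CPM in a MinION library of IGROV-1, with OVTOKO at 31.8 CPM, and MCM6 ran from 32.4 CPM in SK-OV-3 to 176 CPM in COV362.

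PCNA is the sliding clamp that holds DNA polymerases on the template. PCNA was at 135 CPM in SK-OV-3, 269 in COV362, 276 in OVMANA, 336 in OVTOKO, 348 in OVKATE and 373 in COV504, and in IGROV-1 at 494 and 378 on the PromethION and 528 and 423 on the MinION. SK-OV-3 was lowest and IGROV-1 highest, but its second PromethION replicate was level with COV504. RRM1 and RRM2 are the large and small subunits of ribonucleotide reductase, which makes the deoxynucleotides for DNA synthesis. RRM2 stood at 40.5 CPM in SK-OV-3, 109 in OVTOKO, 112 in OVKATE, 181 in COV504, 227 in COV362 and 426 in OVMANA, and in IGROV-1 at 167 and 142 on the PromethION and 191 and 161 on the MinION. OVMANA stood alone at the top and SK-OV-3 alone at the bottom, 10.5-fold apart. RRM2 shares its entry with overlapping genes, and transcripts named RRM2 held at least 99.5% of that entry in every library. RRM1 lay at 40.1 CPM in OVMANA, 48.6 in SK-OV-3, 52.0 in OVTOKO, 63.5 in COV362, 65.8 in OVKATE and 133 in COV504, and in IGROV-1 at 72.2 and 66.1 on the PromethION and 63.0 and 65.8 on the MinION. COV504 stood alone at the top, and the other libraries lay between 40.1 and 72.2 CPM. TYMS, whose gene overlaps ENOSF1 on the opposite strand, makes thymidylate, and TK1 recovers thymidine in the salvage pathway. TK1 was found at 55.2 CPM in SK-OV-3, 159 in OVMANA, 216 in OVTOKO, 237 in COV362, 499 in COV504 and 763 in OVKATE, and in IGROV-1 at 171 and 128 on the PromethION and 201 and 162 on the MinION. OVKATE was highest and SK-OV-3 lowest, 13.8-fold apart, the widest range of the 12 S phase genes. TYMS was measured at 82.1 CPM in OVKATE, 116 in SK-OV-3, 215 in OVMANA, 216 in COV504, 241 in COV362 and 328 in OVTOKO, and in IGROV-1 at 337 and 292 on the PromethION and 486 and 437 on the MinION. OVKATE was lowest for this gene, SK-OV-3 next, and OVTOKO and IGROV-1 were high.

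Cyclins A and B activate CDK1, the kinase that drives mitosis, and CKS1B and CKS2 are small subunits that bind cyclin-dependent kinases. CKS1B was at 134 CPM in OVTOKO, 154 in OVMANA, 168 in SK-OV-3, 269 in COV504, 409 in COV362 and 632 in OVKATE, and in IGROV-1 at 275 and 178 on the PromethION and 332 and 230.5 on the MinION. OVKATE and COV362 were above the other lines, and the IGROV-1 replicates spanned much of the rest. CCNB2 stood at 36.4 CPM in OVTOKO, 58.2 in OVMANA, 95.2 in SK-OV-3, 123 in OVKATE, 170.4 in COV362 and 195 in COV504, and in IGROV-1 at 88.0 and 81.6 on the PromethION and 96.0 and 68.0 on the MinION. COV504 and COV362 were high and OVTOKO and OVMANA low. CDK1 lay at 46.1 CPM in SK-OV-3, 51.5 in OVTOKO, 62.7 in COV504, 70.0 in OVMANA, 119 in COV362 and 176 in OVKATE, and in IGROV-1 at 77.3 and 73.0 on the PromethION and 92.5 and 90.8 on the MinION. OVKATE was highest, and SK-OV-3 and OVTOKO were lowest. CCNA2, CCNB1 and CKS2 each varied by 2.57-fold to 2.99-fold between the highest and lowest line, and CKS2 differed 1.71-fold between the PromethION replicates of IGROV-1 (399 against 233 CPM).

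PLK1, AURKA and AURKB are mitotic kinases, and AURKB works in the chromosomal passenger complex with BIRC5 (survivin) and CDCA8 (borealin). BIRC5 was found at 122 CPM in OVMANA, 167 in SK-OV-3, 168 in OVTOKO, 221 in COV362, 314 in COV504 and 365 in OVKATE, and in IGROV-1 at 117 and 85.5 on the PromethION and 150.3 and 96.1 on the MinION. OVKATE and COV504 were high, and OVMANA and IGROV-1 low. AURKB was measured at 9.62 CPM in SK-OV-3, 16.0 in OVMANA, 23.7 in OVKATE, 30.3 in COV504, 32.1 in COV362 and 33.0 in OVTOKO, and in IGROV-1 at 65.8 and 43.8 on the PromethION and 61.4 and 43.9 on the MinION. SK-OV-3 was lowest and every IGROV-1 library was above every other line. AURKA was at 43.0 CPM in SK-OV-3, 48.6 in OVTOKO, 65.8 in OVKATE, 72.5 in COV504, 72.9 in COV362 and 146 in OVMANA, and in IGROV-1 at 37.6 and 33.5 on the PromethION and 33.5 and 28.1 on the MinION. OVMANA stood alone at the top and the 4 IGROV-1 libraries lay at the bottom. PLK1 varied by 2.21-fold and CDCA8 by 2.69-fold between lines.

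BUB1, BUB1B, TTK and MAD2L1 are parts of the spindle checkpoint, which restrains the anaphase-promoting complex until chromosomes are attached. CDC20 activates that complex, UBE2C supplies it with ubiquitin, and PTTG1 (securin) is one of its substrates. UBE2C stood at 183 CPM in SK-OV-3, 205 in OVTOKO, 221 in OVMANA, 349.7 in OVKATE, 406 in COV504 and 468 in COV362, and in IGROV-1 at 178 and 162 on the PromethION and 200.2 and 174 on the MinION. COV362 and COV504 were highest, and IGROV-1 and SK-OV-3 overlapped at the bottom. PTTG1 lay at 114 CPM in OVMANA, 162 in SK-OV-3, 179.8 in OVTOKO, 227 in OVKATE, 283 in COV504 and 632 in COV362, and in IGROV-1 at 392 and 206 on the PromethION and 498 and 292 on the MinION. COV362 was highest, and replicate 1 of IGROV-1 exceeded replicate 2 on both instruments. BUB1B was found at 13.3 CPM in OVTOKO, 16.0 in OVMANA, 48.1 in SK-OV-3, 52.9 in COV362, 57.4 in OVKATE and 69.4 in COV504, and in IGROV-1 at 57.7 and 49.4 on the PromethION and 46.9 and 47.0 on the MinION. OVTOKO and OVMANA were low, and the other 5 lines lay close together. BUB1 was measured at 17.7 CPM in SK-OV-3, 29.2 in OVKATE, 31.2 in OVTOKO, 39.2 in COV504, 46.6 in COV362 and 53.4 in OVMANA, and in IGROV-1 at 32.5 and 26.2 on the PromethION and 37.6 and 37.4 on the MinION. OVMANA and COV362 were high and SK-OV-3 low. TTK was at 10.7 CPM in OVMANA, 11.9 in OVKATE, 12.7 in OVTOKO, 21.8 in SK-OV-3, 24.9 in COV504 and 31.0 in COV362, and in IGROV-1 at 6.83 and 8.16 on the PromethION and 5.18 and 5.56 on the MinION. IGROV-1 was lowest, with 16 to 19 counts in a library. CDC20 varied by 2.78-fold and MAD2L1 by 2.56-fold between lines.

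KIF11 separates the spindle poles, KIF20A and KIF23 act in cytokinesis, KIF2C depolymerises microtubules, and CENPE and CENPF act at kinetochores. TPX2 and NUSAP1 are spindle assembly factors. KIF11 stood at 10.1 CPM in SK-OV-3, 16.0 in OVMANA, 17.3 in OVKATE, 22.5 in OVTOKO, 27.6 in COV504 and 56.8 in COV362, and in IGROV-1 at 25.6 and 21.9 on the PromethION and 43.1 and 38.6 on the MinION. COV362 was highest and SK-OV-3 lowest, and the MinION libraries of IGROV-1 lay above its PromethION libraries. CENPF lay at 76.9 CPM in OVTOKO, 93.2 in SK-OV-3, 95.6 in OVMANA, 96.9 in OVKATE, 149 in COV504 and 153 in COV362, and in IGROV-1 at 134 and 127 on the PromethION and 78.0 and 83.1 on the MinION. Lines differed by at most 1.99-fold, and both MinION libraries lay below both PromethION libraries. KIF20A was found at 30.5 CPM in OVMANA, 33.5 in OVTOKO, 49.6 in SK-OV-3, 66.8 in OVKATE, 75.2 in COV504 and 111 in COV362, and in IGROV-1 at 69.2 and 61.9 on the PromethION and 57.3 and 46.0 on the MinION. COV362 was highest, and OVMANA and OVTOKO lowest. NUSAP1 was measured at 38.7 CPM in OVTOKO, 56.6 in OVMANA, 87.6 in SK-OV-3, 137 in OVKATE, 142 in COV362 and 165 in COV504, and in IGROV-1 at 113 and 98.4 on the PromethION and 96.8 and 82.8 on the MinION. The same 2 lines were lowest, and COV504 was highest. CENPE was at 17.2 CPM in COV362, 17.3 in OVTOKO, 21.4 in COV504, 38.0 in SK-OV-3, 42.2 in OVMANA and 45.0 in OVKATE, and in IGROV-1 at 30.8 and 27.9 on the PromethION and 16.4 and 21.0 on the MinION. OVKATE, OVMANA and SK-OV-3 were high, and COV362, OVTOKO and the MinION libraries low. KIF2C stood at 42.5 CPM in OVKATE, 43.0 in SK-OV-3, 43.6 in COV504, 49.7 in OVMANA, 55.6 in COV362 and 64.7 in OVTOKO, and in IGROV-1 at 49.5 and 42.1 on the PromethION and 42.3 and 40.8 on the MinION. It varied least of all members, 1.52-fold between the highest and lowest line. KIF23 and TPX2 varied by 2.45-fold and 1.76-fold.

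TOP2A untangles chromosomes, and MKI67 (Ki-67), the usual histological marker of proliferation, coats mitotic chromosomes. TOP2A lay at 123 CPM in OVKATE, 161 in OVTOKO, 197 in COV504, 205 in COV362, 263 in SK-OV-3 and 282 in OVMANA, and in IGROV-1 at 296 and 250.4 on the PromethION and 204 and 236 on the MinION. OVKATE was lowest, and OVMANA, SK-OV-3 and IGROV-1 overlapped at the top. MKI67 was found at 36.1 CPM in OVKATE, 50.8 in OVMANA, 50.9 in OVTOKO, 61.8 in SK-OV-3, 62.3 in COV504 and 86.6 in COV362, and in IGROV-1 at 55.1 and 52.8 on the PromethION and 44.7 and 52.5 on the MinION. OVKATE was lowest and COV362 highest. SK-OV-3, lowest for most S phase genes, lay in the middle or upper range for both.

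Across lines the median member varied 3.46-fold between its highest and lowest line, against 3.77-fold for 8813 genes whose mean reached 10 CPM. Each line was next set against the equal-weight mean of the 6 other PromethION groups, in 1 edgeR fit over all 10 libraries and 13030 genes that passed a filter on low counts, all 40 members among them. A call is a Benjamini-Hochberg adjusted p under 0.05 over all genes tested, two-sided. The 7 comparisons share libraries, so they are not independent, and only the IGROV-1 replicates supply the spread, so each lone library is assumed to vary as they do. 38 of the 40 members were called in at least 1 of the 7 comparisons. In a single comparison 26.6% to 42.6% of all genes tested were called. The share of all genes called in at least 1 was not computed, so the 38 cannot be set against it. CKS2 and MAD2L1 were called in none. The range beside an adjusted p is that over the 11 alternatives that keep the same reference.

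**Figure D2:**
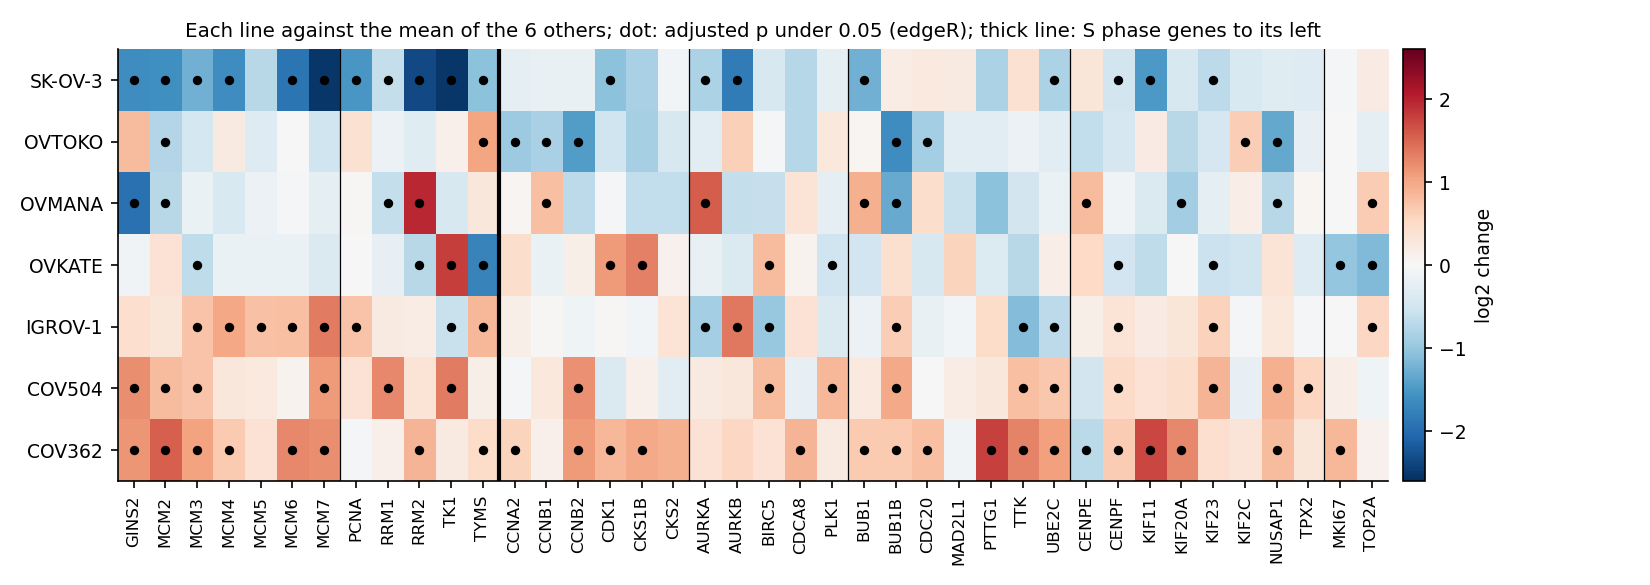
Colours give the log2 change of each of 40 genes (columns, grouped by role) in each line (rows) against the mean of the 6 other lines, and dots mark adjusted p under 0.05 (edgeR). The S phase genes, left of the thick line, are blue across SK-OV-3, while the rows of COV362 and COV504 are mostly red, with 25 and 16 members called.

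In SK-OV-3, genes of DNA replication and nucleotide synthesis were low, and most mitotic genes differed less. Of the 12 S phase members 11 were lower, with log2 changes from -0.63 to -2.53, and MCM5 (log2 change -0.72) missed the threshold. Of the 28 G2 and M phase members 8 were lower. Together 19 of 40 were called, all lower, where 31.3% of all genes were called and 12.0% were called lower. The median log2 change was -1.61 for the S phase members, -0.37 for the G2 and M phase members and 0.05 for all genes tested. MCM7 decreased by 2.53 ± 0.22 (SE) on the log2 scale (edgeR adjusted p = 0.00011, range 1.8e-20 to 0.017). TK1 dropped by 2.53 ± 0.26 (SE) on the log2 scale (edgeR adjusted p = 0.00022, range 8.8e-24 to 0.022). RRM2 fell by 2.34 ± 0.22 (SE) on the log2 scale (edgeR adjusted p = 0.00017, range 2.8e-20 to 0.019). A helicase subunit, a salvage enzyme and the small reductase subunit thus had the largest falls of the members. MCM6 decreased by 1.91 ± 0.25 (SE) on the log2 scale (edgeR adjusted p = 0.00082, range 9.2e-14 to 0.03). PCNA dropped by 1.51 ± 0.23 (SE) on the log2 scale (edgeR adjusted p = 0.0018, range 9.6e-11 to 0.032). RRM1 changed least among those called (log2 change -0.63 ± 0.17 (SE), edgeR adjusted p = 0.024). Of the mitotic genes, AURKB (log2 change -1.81 ± 0.43 (SE), edgeR adjusted p = 0.014), KIF11 (log2 change -1.48 ± 0.29 (SE), edgeR adjusted p = 0.0057), BUB1 (log2 change -1.26 ± 0.24 (SE), edgeR adjusted p = 0.0049) and CDK1 (log2 change -1.07 ± 0.17 (SE), edgeR adjusted p = 0.0024) had the largest falls. BUB1B, TTK, MAD2L1, CDC20, CENPE and TOP2A had log2 changes above 0, from 0.20 to 0.39, and were not called. 10 of the 11 S phase calls held with DESeq2, all but RRM1 (adjusted p = 0.55), but 1 of the 8 mitotic calls did, UBE2C. Most mitotic calls were thus made by 1 of the 2 tests only. Over all genes DESeq2 called 510 higher and 457 lower in SK-OV-3, against 2513 and 1560 with edgeR, so many calls outside the members were lost too. Without MinION replicate 1 of IGROV-1, RRM1, AURKB, KIF23 and CENPF were not called (adjusted p = 0.066, 0.067, 0.072 and 0.079), and the same 4 were not called without MinION replicate 2. CENPF was also not called without PromethION replicate 1 (0.057) or 2 (0.050).

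**Figure D3:**
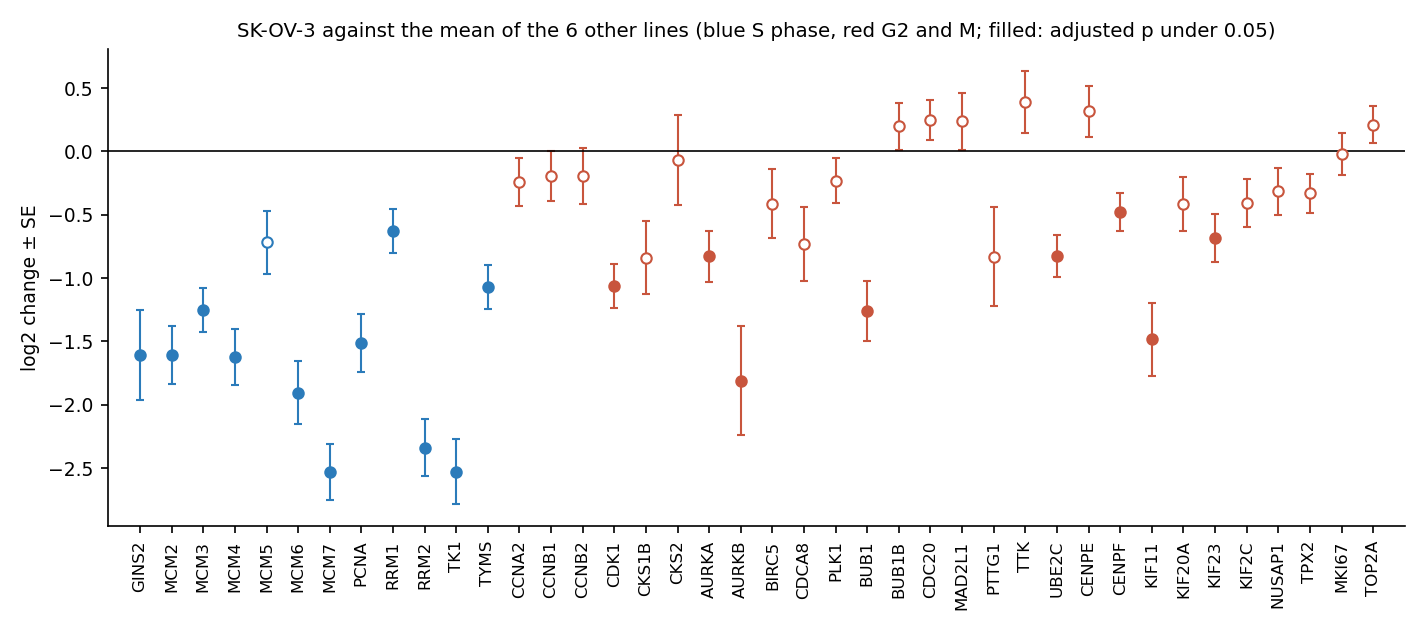
Points give the log2 change of each of 40 genes in SK-OV-3 against the mean of the 6 other lines, bars give 1 SE, blue marks S phase and red G2 and M phase genes, and filled points have an adjusted p under 0.05 (edgeR). 11 of 12 S phase genes and 8 of 28 others are filled, all below 0.

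Other genes of the same phases were taken from lists of 30 S phase and 36 G2 and M phase genes. In SK-OV-3, 20 of the 30 other S phase genes were lower and none higher, with a median log2 change of -1.11. ORC1, a subunit of the origin recognition complex, was at 2.03 CPM in SK-OV-3 against 6.23 to 32.9 CPM in the other libraries (log2 change -2.77 ± 0.51 (SE), edgeR adjusted p = 0.0044). UHRF1, which maintains DNA methylation behind the fork, was at 2.53 CPM in SK-OV-3, 3.21 in OVMANA and 8.62 to 20.8 CPM elsewhere (log2 change -2.26 ± 0.47 (SE), edgeR adjusted p = 0.008). Of the 36 other G2 and M phase genes, 9 were lower and 2 higher, with a median of -0.21. CDC25B, a phosphatase that activates CDK1, was highest in SK-OV-3 at 242 CPM against 18.3 to 112 CPM in the other libraries (log2 change 2.17 ± 0.13 (SE), edgeR adjusted p = 1.4e-05).

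COV362 had the most calls in the edgeR test, with both phases high. 25 of 40 members were called, 24 higher and 1 lower, where 34.1% of all genes were called and 22.9% were called higher. 8 of 12 S phase members and 16 of 28 G2 and M phase members were higher, and CENPE was lower. Median log2 changes were 0.78, 0.68 and, over all genes, 0.14. Against IGROV-1 on the PromethION alone these medians were 0.085, 0.51 and 0.035. MCM4, MCM7 and TYMS then had log2 changes of -0.28, -0.12 and -0.34, so high S phase levels in COV362 depend on the reference. PTTG1 rose by 1.78 ± 0.31 (SE) on the log2 scale (edgeR adjusted p = 0.0032, range 1.3e-27 to 0.063). KIF11 was higher by 1.73 ± 0.19 (SE) on the log2 scale (edgeR adjusted p = 0.00033, range 3.7e-13 to 0.066). MCM2 increased by 1.55 ± 0.16 (SE) on the log2 scale (edgeR adjusted p = 0.0003, range 5.4e-17 to 0.022). Securin, a spindle motor and a helicase subunit were thus the members with the largest rises. TTK rose by 1.29 ± 0.21 (SE) on the log2 scale (edgeR adjusted p = 0.0025, range 2.4e-05 to 0.49). UBE2C was higher by 1.07 ± 0.14 (SE) on the log2 scale (edgeR adjusted p = 0.00084, range 5.0e-09 to 0.024). CENPE went the other way (log2 change -0.69 ± 0.23 (SE), edgeR adjusted p = 0.045). DESeq2 called 5 of the 25, namely MCM2, MCM6, MCM7, CKS1B and UBE2C, and gave PTTG1 an adjusted p of 0.063, KIF11 0.066 and TTK 0.49. That was fewer than the 11 it called in SK-OV-3 and the 9 in IGROV-1. Over all genes it called 590 higher and 314 lower in COV362, against 2979 and 1459 with edgeR. CENPE was not called without MinION replicate 1 (adjusted p = 0.080) or MinION replicate 2 (0.072) of IGROV-1. MCM4, TYMS, CKS1B, CDCA8, BUB1 and BUB1B were also not called without either of these libraries, nor CCNA2 without MinION replicate 1. Fewer of all genes were called without either library too.

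COV504 was higher than the mean of the other lines for members of both phases. 16 of 40 were called, all higher, where 29.8% of all genes were called, 20.6% higher and 9.19% lower. These were 6 of 12 S phase and 10 of 28 G2 and M phase members, with median log2 changes of 0.56 and 0.28 and 0.09 over all genes. TK1 increased by 1.35 ± 0.18 (SE) on the log2 scale (edgeR adjusted p = 0.00087, range 1.1e-14 to 0.029). RRM1 rose by 1.24 ± 0.14 (SE) on the log2 scale (edgeR adjusted p = 0.00036, range 2.6e-10 to 0.043). GINS2 was higher by 1.20 ± 0.26 (SE) on the log2 scale (edgeR adjusted p = 0.009, range 5.8e-09 to 0.096). All 3 act in S phase, and mitotic members followed. CCNB2 increased by 1.19 ± 0.19 (SE) on the log2 scale (edgeR adjusted p = 0.0025, range 2.2e-10 to 0.029). BUB1B rose by 0.99 ± 0.17 (SE) on the log2 scale (edgeR adjusted p = 0.0032, range 1.8e-05 to 0.3). DESeq2 called 4 of these 16 (MCM7, RRM1, TK1 and CCNB2) and gave GINS2 an adjusted p of 0.096 and BUB1B one of 0.30. BIRC5, TTK, CENPF and TPX2 were not called without MinION replicate 1 of IGROV-1 (adjusted p = 0.063, 0.077, 0.066 and 0.055). TTK and CENPF were also not called without MinION replicate 2. In this line 12 of the 36 other G2 and M phase genes were higher, beside 3 of the 30 other S phase genes (median -0.04), and none of either list was lower. Against IGROV-1 on the PromethION alone the median of the S phase members was -0.10, and of the 6 S phase calls RRM1 and TK1 remained. MCM2 and GINS2 were not called then (adjusted p = 0.11 for both), and MCM3 and MCM7 had log2 changes of -0.01 and -0.20.

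IGROV-1 was higher for several genes of the replicative helicase and mixed for mitotic genes. 17 of 40 members were called, 12 higher and 5 lower, where 42.6% of all genes were called, 25.7% higher and 16.9% lower. The share of members called was thus near that of all genes. 7 of 12 S phase members were higher (MCM3, MCM4, MCM5, MCM6, MCM7, PCNA and TYMS) and TK1 was lower. The median log2 change of the S phase members was 0.74, that of the G2 and M phase members 0.03 and that of all genes 0.04. MCM7 was higher by 1.35 ± 0.12 (SE) on the log2 scale (edgeR adjusted p = 4.9e-05, range 3.7e-14 to 0.0076). MCM4 increased by 1.00 ± 0.13 (SE) on the log2 scale (edgeR adjusted p = 0.00043, range 3.9e-09 to 0.019). AURKB rose by 1.38 ± 0.22 (SE) on the log2 scale (edgeR adjusted p = 0.0014, range 1.1e-12 to 0.024). These 3 had the largest rises, and the next 3 the largest falls. TTK decreased by 1.13 ± 0.23 (SE) on the log2 scale (edgeR adjusted p = 0.0044, range 0.003 to 0.25). BIRC5 dropped by 0.98 ± 0.21 (SE) on the log2 scale (edgeR adjusted p = 0.0061, range 1.1e-07 to 0.026). AURKA fell by 0.88 ± 0.15 (SE) on the log2 scale (edgeR adjusted p = 0.0019, range 0.00028 to 0.05). DESeq2 gave TTK an adjusted p of 0.25 and called 9 of the 17: MCM4, MCM7, PCNA, TYMS, TK1, AURKA, AURKB, BIRC5 and UBE2C. MCM3, MCM5 and MCM6 were not called with it (adjusted p = 0.083, 0.22 and 0.056), so the helicase calls common to both tools are MCM4 and MCM7. TK1 was not called without PromethION replicate 2 (adjusted p = 0.11) or MinION replicate 1 (0.060), TOP2A without PromethION replicate 1 (0.058), and CENPF without any 1 of the 4 libraries. Of the 30 other S phase genes 18 were higher and 1 lower (median 0.62), and ORC1 had the largest rise (log2 change 1.90 ± 0.21 (SE), edgeR adjusted p = 0.00021). Of the 36 other G2 and M phase genes 4 were higher and 9 lower.

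OVTOKO was lower for several mitotic genes. 9 of 40 members were called, 2 higher and 7 lower, where 26.6% of all genes were called, 17.6% higher and 8.95% lower. The share of members called in either direction was thus near that of all genes. 6 of the 7 falls were G2 and M phase genes. BUB1B decreased by 1.60 ± 0.25 (SE) on the log2 scale (edgeR adjusted p = 0.0023, range 3.1e-06 to 0.059). CCNB2 dropped by 1.45 ± 0.27 (SE) on the log2 scale (edgeR adjusted p = 0.0049, range 3.1e-08 to 0.025). NUSAP1 fell by 1.33 ± 0.21 (SE) on the log2 scale (edgeR adjusted p = 0.0025, range 2.8e-07 to 0.031). A checkpoint kinase, cyclin B2 and a spindle factor were thus lower, while the thymidylate enzyme was higher. TYMS was higher by 1.03 ± 0.15 (SE) on the log2 scale (edgeR adjusted p = 0.0014, range 8.2e-08 to 0.029). KIF2C was the other member called higher (log2 change 0.64 ± 0.18 (SE), edgeR adjusted p = 0.029). DESeq2 called TYMS, CCNB2 and NUSAP1 and gave BUB1B an adjusted p of 0.059 and KIF2C one of 0.61. KIF2C and CCNB1 were not called without MinION replicate 1 (adjusted p = 0.087 and 0.10) or 2 (0.075 and 0.083), nor MCM2 without MinION replicate 1 (0.053). With library totals alone as the scale 14 members were called, 1 higher and 13 lower, where 14.4% of all genes were called higher and 12.6% lower. Without PromethION replicate 1 of IGROV-1 14 were called too, where 2598 of 13005 genes were called higher and 1391 lower.

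In OVMANA, single members stood out in both directions within each phase. 12 of 40 were called, 6 higher and 6 lower, where 29.6% of all genes were called, 19.1% higher and 10.5% lower, so the count lies near that of all genes. RRM2 increased by 1.96 ± 0.15 (SE) on the log2 scale (edgeR adjusted p = 3.8e-05, range 3.3e-31 to 0.010). AURKA rose by 1.57 ± 0.16 (SE) on the log2 scale (edgeR adjusted p = 0.00018, range 4.0e-16 to 0.014). BUB1 was higher by 0.93 ± 0.19 (SE) on the log2 scale (edgeR adjusted p = 0.007, range 0.00025 to 0.38). These 3 had the largest rises, and 3 other members had the largest falls. GINS2 dropped by 1.94 ± 0.39 (SE) on the log2 scale (edgeR adjusted p = 0.0069, range 4.8e-10 to 0.02). BUB1B fell by 1.31 ± 0.24 (SE) on the log2 scale (edgeR adjusted p = 0.0041, range 6.1e-05 to 0.15). KIF20A decreased by 0.90 ± 0.23 (SE) on the log2 scale (edgeR adjusted p = 0.021, range 0.0016 to 0.32). RRM1, the partner subunit of RRM2, was lower (log2 change -0.62 ± 0.18 (SE), edgeR adjusted p = 0.032). DESeq2 called RRM2, AURKA and GINS2 and gave BUB1 an adjusted p of 0.38, BUB1B 0.15, KIF20A 0.32 and RRM1 0.54. Without MinION replicate 1 of IGROV-1 fewer members were called, and BUB1, KIF20A and RRM1 were not among them. Fewer of all genes were called then too. RRM1 was not called without MinION replicate 2 either. More members were called without PromethION replicate 2, as were more of all genes.

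OVKATE was high for TK1, CKS1B and CDK1 and low for TYMS, TOP2A and MKI67. 12 of 40 members were called, 4 higher and 8 lower, where 41.1% of all genes were called, 26.0% higher and 15.1% lower. The share of members called was thus below that of all genes. That split depended on the scale: with library totals alone 14 were called, 11 higher and 3 lower, where 34.9% of all genes were called higher and 9.67% lower. The median log2 change of all genes moved from 0.12 to 0.40 then, and the members' median relative to it was -0.29 under both scales. TK1 increased by 1.80 ± 0.17 (SE) on the log2 scale (edgeR adjusted p = 0.0001, range 2.8e-27 to 0.013). CKS1B rose by 1.31 ± 0.24 (SE) on the log2 scale (edgeR adjusted p = 0.0028, range 1.8e-14 to 0.032). CDK1 was higher by 1.10 ± 0.14 (SE) on the log2 scale (edgeR adjusted p = 0.00039, range 8.2e-09 to 0.034). TK1 and TYMS, which both supply thymidylate, lay on opposite sides. TYMS dropped by 1.74 ± 0.19 (SE) on the log2 scale (edgeR adjusted p = 0.00019, range 2.1e-13 to 0.013). TOP2A fell by 1.15 ± 0.17 (SE) on the log2 scale (edgeR adjusted p = 0.00086, range 2.1e-07 to 0.021). MKI67 decreased by 1.01 ± 0.18 (SE) on the log2 scale (edgeR adjusted p = 0.0028, range 0.00011 to 0.2). These 6 were called in the same direction under library totals, and DESeq2 called 5 of them, all but MKI67 (adjusted p = 0.20). KIF23 was not called without PromethION replicate 1 of IGROV-1 (adjusted p = 0.050), KIF23, PLK1 and CENPF not without MinION replicate 1, and KIF23 and PLK1 not without MinION replicate 2. From the other lists, CHAF1B, a chromatin assembly factor, was at 62.3 CPM in OVKATE against 12.3 to 19.6 CPM elsewhere (log2 change 1.79 ± 0.22 (SE), edgeR adjusted p = 0.00041). SPC24, a kinetochore protein, was at 109.8 CPM against 14.2 to 39.96 CPM elsewhere (log2 change 1.70 ± 0.22 (SE), edgeR adjusted p = 0.00046). Summed over the other lists, OVKATE was the highest line, at 1630 CPM for S phase and 2408 CPM for G2 and M phase genes. COV362 had 1436 and 1986 CPM. These sums are scaled to library totals and weigh abundant genes most.

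Levels of regulators of G1, the phase before S phase, are given beside those of the members, and their part in the members' levels was not tested. CDKN1A (p21) inhibits cyclin-dependent kinases and is induced by p53. CDKN1A was measured at 11.6 CPM in COV504, 13.7 in COV362, 17.3 in OVKATE, 21.8 in SK-OV-3, 149.6 in OVMANA and 271 in OVTOKO, and in IGROV-1 at 288 and 418 on the PromethION and 272 and 427 on the MinION. IGROV-1, OVTOKO and OVMANA were high and the other 4 lines low. CDKN2A encodes p16 and ARF, which act on RB and p53. CDKN2A was at 0 CPM in COV504, 0 in OVTOKO, 0.506 in SK-OV-3, 128 in OVKATE, 289 in OVMANA and 434 in COV362, and in IGROV-1 at 62.4 and 75.6 on the PromethION and 88.9 and 123 on the MinION. It was listed at 0 in OVTOKO and COV504, which allows up to 1.73 and 1.33 CPM, and was near 0 in SK-OV-3. Cyclin D1 (CCND1) and cyclin E1 (CCNE1) carry cells through G1. CCND1 stood at 117 CPM in OVTOKO, 205 in OVMANA, 250.2 in SK-OV-3, 357 in COV362, 357 in COV504 and 697 in OVKATE, and in IGROV-1 at 905 and 1170.5 on the PromethION and 772 and 1039.7 on the MinION. IGROV-1 was highest, with OVKATE next. CCNE1 lay at 5.57 CPM in SK-OV-3, 5.78 in COV504, 7.42 in OVKATE, 9.25 in OVTOKO, 25.5 in COV362 and 79.6 in OVMANA, and in IGROV-1 at 15.8 and 14.6 on the PromethION and 17.2 and 15.8 on the MinION. OVMANA stood alone at the top (log2 change 3.17 ± 0.19 (SE), edgeR adjusted p = 8.7e-06). CDKN1B (p27) was listed at 0 in OVKATE, which allows up to 1.48 CPM, against 29.4 to 173 CPM elsewhere. CDK6 was listed at 0 in all 4 IGROV-1 libraries and at 8.55 to 87.6 CPM in the other lines. CCND2 was at 18.7 CPM in OVMANA and at most 3.71 CPM elsewhere. KIF15, a kinesin from the G2 and M phase list, was lowest in OVMANA at 2.67 CPM (log2 change -1.99 ± 0.62 (SE), edgeR adjusted p = 0.043).

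The 2 instruments were compared within IGROV-1, in a fit on its 4 libraries over 10041 genes. Without a block for the replicate number, CENPF was the only 1 of 40 members called, where 0.817% of all genes were called and 0.707% were called lower. With that block 14 members were called, 6 higher and 8 lower, where 10.1% of all genes were called higher and 9.56% lower. CENPF was at 134 and 127 CPM on the PromethION and 78.0 and 83.1 CPM on the MinION (log2 change -0.74 ± 0.13 (SE), edgeR adjusted p = 0.039). The CENPF call without the block was lost without any 1 of the 4 libraries, with an adjusted p of 0.062 and 0.18 without PromethION replicates 1 and 2, and 0.51 and 0.39 without MinION replicates 1 and 2, and it was lost with DESeq2 (adjusted p = 0.15). 6 members had an unadjusted p under 0.05, as did 1659 of the 10041 genes. MCM3, CENPE and TOP2A had log2 changes of -0.51, -0.70 and -0.36, and TYMS and KIF11 of 0.51 and 0.74. Mitochondrial ribosomal RNA also differed within IGROV-1, at 9.13% and 10.9% of counts on the PromethION and 1.15% and 1.01% on the MinION. The 6 other lines, all on the PromethION, had 1.58% to 3.31%, so the high share was not common to PromethION libraries. These 2 IGROV-1 libraries also enter every line comparison. The part of this RNA in the differences between instruments or lines was not tested.

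The deposited counts are given per transcript, so the split of a gene over its transcripts could be compared. They are fractional estimates, and how much of a split was set by the quantification rather than by reads that match 1 transcript alone was not tested. 30 of the 40 members have 2 or more listed transcripts, and 100 of the 114 transcripts had at least 1 count in some library. 26 of the 30 kept 1 leading transcript in all 10 libraries. The exceptions were AURKA, AURKB, CENPE and MKI67. Usage was tested with edgeR's exon-level procedure on transcripts, with a Simes p per gene.

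Between instruments CDK1 was the only 1 of 19 members tested with a usage call, where 5.81% of 2979 genes had one (edgeR adjusted p = 5.6e-05, and at most 0.012 over the alternatives). The difference lies in a 171-base coding exon (57 codons) of CDK1, chr10:60788060-60788230 on the plus strand of GRCh38, exon 5 of 8 in ENST00000395284. It is present in the full-length kinase, lies within the kinase domain, and is skipped in ENST00000373809. Its sequence is shown in full because the skip keeps the reading frame.
CDK1 exon: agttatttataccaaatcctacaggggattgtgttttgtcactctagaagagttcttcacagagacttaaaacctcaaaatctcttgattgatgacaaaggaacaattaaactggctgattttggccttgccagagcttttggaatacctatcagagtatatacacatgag
Transcripts with this exon, among them ENST00000448257, which carries a slightly longer form of it, held 47.3% and 46.7% of CDK1 counts in the PromethION replicates of IGROV-1. In the MinION replicates they held 14.3% (95% Wilson interval 11.1 to 18.6) and 17.9% (14.1 to 22.8). Group means were 47.0% ± 0.4 and 16.1% ± 2.5 (SD, n = 2 each), and the instruments did not overlap. The 6 other lines, all on the PromethION, had 37.2% to 48.3%. ENST00000395284 fell from 45.3% ± 0.6 to 7.13% ± 2.62 (SD, n = 2 each) on the MinION. The skipping form ENST00000373809 rose from 48.3% ± 1.5 to 80.0% ± 1.3, and ENST00000448257 from 1.20% ± 0.80 to 8.57% ± 0.14. CDK1 itself was at 75.2 ± 3.0 CPM on the PromethION and 91.7 ± 1.2 CPM on the MinION (SD, n = 2 each), so its level moved far less than its split. MinION values rest on 339 and 294 counts of CDK1 and PromethION values on 181 and 170.

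Between lines 4 of 23 members tested had a usage call in at least 1 comparison, where 11.1% of 4730 genes did. CDK1 was called in OVKATE, where 2.83% of genes had a usage call (edgeR adjusted p = 0.0034), and there ENST00000316629 held 17.7% of its counts (95% Wilson interval 14.1 to 22.0) against at most 8.22% in any other library. The call was lost with a minimum mean of 10 CPM, and with no other alternative run. TYMS was called in OVKATE (edgeR adjusted p = 0.010, 0.0039 to 0.083 over the alternatives), where ENST00000323224 held 5.29% of counts (2.88 to 9.98) against at most 0.28% elsewhere. It was lost without either MinION replicate of IGROV-1. MCM3 was called in COV362, where 2.01% of genes were (edgeR adjusted p = 0.016, 0.0047 to 0.11 over the alternatives). Its 3 main transcripts differ at the 5′ end and took near-equal shares in most libraries, between 30.8% and 35.5% in all but OVKATE and COV362. ENST00000616552 held 32.8% in each of OVMANA, OVTOKO and SK-OV-3, so such equal shares may not be measured ones. In COV362 ENST00000616552, which starts farthest upstream, held 11.6% (8.7 to 15.4) and ENST00000229854, which starts farthest downstream, 55.3% (50.2 to 60.5). OVKATE leaned the same way at 22.9% and 43.4%. The MCM3 call was lost without any 1 of the 4 IGROV-1 libraries.

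MKI67 was the fourth, called in IGROV-1, where 6.30% of genes were (edgeR adjusted p = 0.03, 0.0076 to 0.34 over the alternatives). In OVTOKO, where 0.951% of genes had a usage call, no member did at an adjusted p under 0.05. Its 2 transcripts differ by exon 7, a coding exon of 1080 bases (360 codons) at chr10:128114928-128116007 on the minus strand of GRCh38, which ENST00000368654 holds and ENST00000368653 skips. The first 120 bases of that exon, chr10:128115888-128116007, are given to identify it.
MKI67 exon 7: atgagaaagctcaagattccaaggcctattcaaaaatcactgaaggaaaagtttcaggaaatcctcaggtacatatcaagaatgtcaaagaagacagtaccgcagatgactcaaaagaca
The form with the exon held 94.2% of MKI67 counts in COV504 (95% Wilson interval 89.1 to 97.1), 87.5% in OVTOKO, 86.9% in OVKATE, 75.6% in COV362, 60.1% in OVMANA and 54.6% in SK-OV-3. In IGROV-1 it held 52.0% and 61.9% on the PromethION and 51.7% and 36.5% on the MinION. SK-OV-3 and OVMANA overlap IGROV-1, so the low share was shared by 3 lines. Intervals of these 3 lie below those of OVKATE, OVTOKO and COV504. The MKI67 call was lost without any 1 of the 4 IGROV-1 libraries. These intervals cover counting error only, and reads without molecular identifiers may not be independent molecules.

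**Figure D4:**
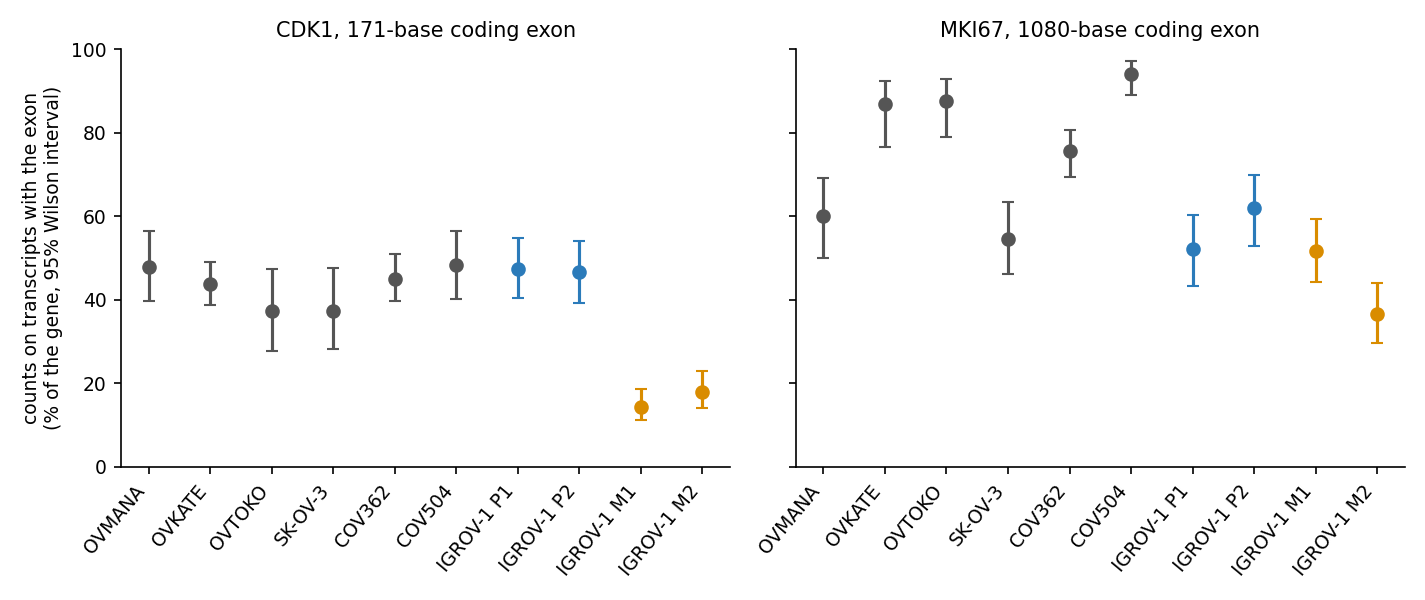
Points give the percent of a gene's counts on transcripts that hold the 171-base exon of CDK1 (left) or the 1080-base exon of MKI67 (right) in 10 libraries, with 95% Wilson intervals. Grey marks the 6 single-library lines, blue the PromethION (P1, P2) and orange the MinION (M1, M2) replicates of IGROV-1. The CDK1 share is 14.3% and 17.9% on the MinION and 37.2% or more elsewhere, and the MKI67 share runs from 36.5% to 94.2%.

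Replicate 1 of IGROV-1 held more cell cycle RNA than replicate 2 on both instruments. On the PromethION 38 of 40 members were higher in replicate 1, and on the MinION 31 were. 30 members (75%) were higher in replicate 1 on both, against 25.5% of 7891 genes whose mean reached 10 CPM. The median ratio of replicate 1 to replicate 2 was 1.15 on each instrument for members, and 0.99 and 0.94 for those genes. PTTG1 differed most on the PromethION, 1.90-fold, with CKS2 at 1.71-fold and CKS1B at 1.54-fold. The S and the G2 and M phase members each had 75% higher in replicate 1 on both instruments. TTK was lower in replicate 1 on both instruments, and MCM2 was level on the PromethION (ratio 0.999). Other genes moved the opposite way: CDKN1A was at 288 and 418 CPM in PromethION replicates 1 and 2 and at 272 and 427 CPM in the MinION replicates. KRT18 was at 263 and 1041 CPM on the PromethION and 244 and 1079.5 CPM on the MinION. No test of replicate 1 against replicate 2 is given, since each instrument has 1 library of each number, and the part of these other genes in the difference was not tested.

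**Figure D5:**
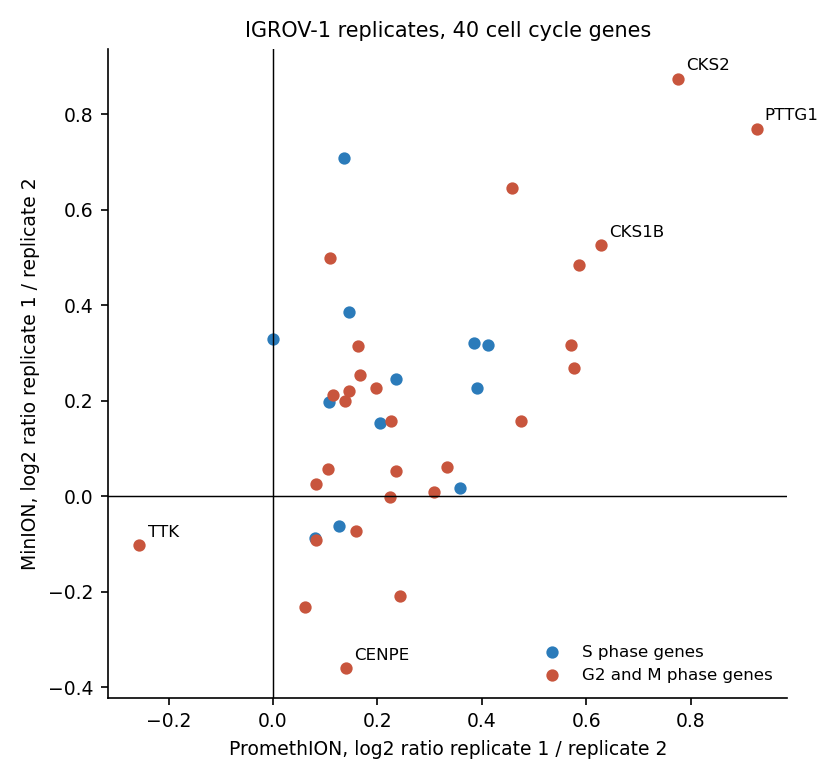
Each point is 1 of 40 genes, with the log2 ratio of IGROV-1 replicate 1 to replicate 2 on the PromethION (x axis) and on the MinION (y axis), blue for S phase and red for G2 and M phase genes. 30 points lie in the upper right quadrant, where replicate 1 is higher on both.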

How the data were processed

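RNA of 7 ovarian cancer lines was sequenced on nanopore instruments. The authors deposited an estimated count, which need not be whole, and a TPM value for each of 99493 transcripts in each of 10 libraries. The deposited TPM equals count divided by library total, so it is not divided by length and is called CPM here. The submitters' processing notes name minimap2 2.24-r1122 and GRCh38. Neither the quantifier nor the use of strand is stated in those notes or labels, so reads of genes that overlap on opposite strands (TYMS with ENOSF1, KIF20A with BRD8) cannot be told apart.

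Counts were summed per gene, rounded, and tested in R 4.3.3 with edgeR 4.0.16 (quasi-likelihood test, TMM scaling, filterByExpr, Benjamini-Hochberg adjustment over all genes). Each line was set against the mean of the 6 other PromethION groups in a fit over 10 libraries, and MinION against PromethION in a fit over the 4 IGROV-1 libraries. Residual degrees of freedom were 2 in both. They come from the difference between replicates on each instrument, and are not independent if equal numbers mark the same sample. In that case the p-values are too small or too large by an amount that was not tested. Transcript usage was tested with diffSpliceDGE and Simes p-values. DESeq2 1.42.0, other scalings, filters, references and leave-one-out fits were alternatives. Scripts were tested on simulated data. IGROV-1 replicates differed by more than counting noise (chi-square per degree of freedom 4.36 on the PromethION and 6.73 on the MinION).

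Values per library are given for the member with the highest mean and that with the widest range in each role, for the 3 largest rises and falls called per line, for members called between instruments or in usage, and for the most changed genes of the other lists. Others named were chosen after their values were seen. The members and lists were chosen with earlier results of these data known.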

Additional observations from a re-analysis of the deposited data

How the results depend on the processing

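With DESeq2, members called numbered 3 in OVMANA, 5 in OVKATE, 3 in OVTOKO, 11 in SK-OV-3, 5 in COV362, 4 in COV504 and 9 in IGROV-1, which is 40 of the 111 single calls. Over all genes DESeq2 also called fewer, 510 to 983 higher and 253 to 1231 lower in a line. The edgeR test called 2297 to 3390 genes higher and 1166 to 2198 lower. Library totals, a minimum mean of 10 CPM and IGROV-1 alone as the reference each gave 14 in OVTOKO, and that reference gave 19 in OVMANA. In OVTOKO these settings called 14.4%, 21.2% and 18.2% of all genes higher and 12.6%, 13.1% and 15.9% lower. That reference called 18.9% of all genes higher and 16.5% lower in OVMANA. The share of all genes called also moved in each line when 1 IGROV-1 library was left out. Leaving out 1 IGROV-1 library gave 4 to 19 in OVMANA, 9 to 13 in OVKATE, 7 to 14 in OVTOKO, 15 to 22 in SK-OV-3, 17 to 26 in COV362, 12 to 16 in COV504 and 15 to 19 in IGROV-1. Between instruments the count was 0 with DESeq2, library totals, no filter or all 10 libraries in the fit, and 0 to 1 without 1 library, beside 6 members at an unadjusted p under 0.05 in edgeR. With the replicate number as a block it was 14, 6 higher and 8 lower, where 10.1% of 10041 genes were called higher and 9.56% lower. The labels do not say that the numbers pair the samples, and deviations of same-numbered libraries correlated at 0.37 over all genes and 0.60 over the members. An alternative chosen after seeing the data, the range of the summed levels without SK-OV-3, moved the S phase range from 3.57-fold to 1.48-fold and left the mitotic range at 2.12-fold. Usage calls between lines numbered 7 with a gene-level F test, 2 at 10 CPM, 1 with PromethION libraries alone and 1 to 2 without 1 library. Usage calls between instruments numbered 4, 2 at 10 CPM, 2 with the block and 1 to 1 likewise. The share of all genes with a usage call under these alternatives is not given. These counts therefore cannot be read as results about the members. Of 1315 values of single members under alternatives, 1105 kept direction and call, 204 lost the call and 6 reversed, all with IGROV-1 alone as the reference: AURKA in SK-OV-3 (0.047), MCM4 (-0.28), MCM7 (-0.12) and TYMS (-0.34) in COV362, and MCM3 (-0.00538) and MCM7 (-0.20) in COV504. The cause of these changes was not tested. Single libraries for 6 lines limit all line comparisons.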

Other observations

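Counts of AURKA were spread over many transcripts. 7 of its 8 listed transcripts had at least 1 count in a library, and ENST00000395915, the most frequent leader, held 14.4% to 44.9% of its counts. The leader was ENST00000395914 in IGROV-1 PromethION replicate 2, and ENST00000395913 in both MinION replicates. Shares of ENST00000395913 were 37.7% and 25.2% in the PromethION replicates and 36.0% and 37.0% in the MinION replicates. These forms share a coding length of 1209 bases and have different start sites, and no usage call was made for AURKA in any comparison.

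CENPE had a second form leading in 5 libraries. ENST00000265148 held 54.7% and 60.1% of CENPE counts in PromethION replicates 1 and 2 of IGROV-1 and 42.7% and 43.7% in the MinION replicates, with 15.4% in COV504 and 59.7% in OVKATE.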
